A study of Mus musculus with 4 samples.

Results

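T cells recognise antigen through a receptor of either alpha and beta or gamma and delta chains, held at the membrane by the CD3 chains. The 9 genes described here are mouse genes of that machinery, taken from 45706 genes in the deposited count table. They are the receptor constant genes Trdc and Tcrg-C1, the CD3 genes Cd3d, Cd3e, Cd3g and Cd247, the kinase gene Zap70, the cytokine receptor gene Il2rb and the costimulatory receptor gene Icos. The genes were chosen by name, with their levels in these same libraries already known. Their differences between libraries are therefore a description, with no test, and support nothing.

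Gamma-delta T cells are a minor population in blood and lymph nodes but a major one in mouse skin. There they live as dendritic cells within the epidermis and as motile cells in the dermis. In the epidermis they are known for sensing damaged keratinocytes and releasing growth factors, and in the dermis for making interleukin 17. Their receptors carry the products of the delta and gamma constant genes in place of those of the alpha and beta constant genes. Both kinds of T cell use CD3 chains, so the CD3 genes as a group mark T cells in general. When the receptor is engaged, tyrosines in the CD3 tails are phosphorylated by Lck and bind Zap70, which passes the signal on.

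RNA was sequenced from regenerating digit tips of mice, collected 14 days after amputation, in a study of epidermal factors for digit regeneration. There were 4 genotypes with 1 library each. The wildtype library is in batch 3 in the labels. The libraries of the Sp8 cKO, Sp6 cKO and Sp6+Sp8 cKO genotypes are in batch 1, where cKO is a conditional knockout of genes for zinc-finger transcription factors of the epidermis. Per the labels' protocols, knockout was induced by tamoxifen at 75 mg/kg on each of 5 days, with 5 days of rest before amputation. Neither the labels nor the protocols give the Cre driver, the ages, the strain, the number of animals per library or whether wildtype mice had tamoxifen. The protocols describe amputation through the distal and through the middle phalanx and do not say which was used here. Tissue beyond the distal interphalangeal joint was kept whole, so each library mixes epidermis, nail, connective tissue, bone and blood.

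With 1 library a group there is no replicate check, and each comparison is between 2 libraries and not between 2 conditions. Levels are counts scaled to library size (CPM) by TMM factors. A gene was called higher or lower by a size rule. The rule asks for at least a 2-fold difference on the log2 scale, at least 1 CPM in the higher library and a 95% interval of the ratio (Clopper-Pearson, exact) that excludes 1. A gene is called compared where it meets that CPM minimum. Intervals cover counting error only, and reads amplified without molecular identifiers are not independent molecules. In comparisons with wildtype, batch and genotype cannot be told apart, and all 3 such comparisons share the wildtype library.

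Total counts were between 12588511 and 21834883 per library, and 3 counts correspond to between 0.138 and 0.238 CPM. In the order wildtype, Sp6 cKO, Sp8 cKO, Sp6+Sp8 cKO, which is kept for values listed by library, Sp6 stood at 97.7, 29.2, 95.6 and 57.8 CPM. Sp8 stood at 63.9, 66.1, 16.7 and 13.4 CPM. The Sp6 level in Sp6+Sp8 cKO, 0.591 of that in wildtype, did not pass the size rule. Basal keratinocyte genes summed to between 6012 and 6628 CPM, with 0 of 7 past the rule against wildtype in any cKO library, so epidermis was present in all 4. The X inactivation RNA Xist had a level of 27.9 CPM in Sp8 cKO and between 1526 and 3528 CPM in the others. The Y-linked gene Kdm5d was between 32.0 and 65.3 CPM in all 4. In every comparison with Sp8 cKO, also within batch 1, genotype and the sex makeup of the library cannot be told apart. Xist also differed among wildtype, Sp6 cKO and Sp6+Sp8 cKO, at 1526, 1963 and 3528 CPM. The sex makeup of these libraries may therefore differ too, and comparisons among them are not free of it.

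Receptor sequence limits what the gamma counts can say. The mouse gamma locus holds several constant genes of nearly the same sequence, and the counts depend on how reads shared between them were divided. The stretches below open the first coding exon of the constant genes, which for Tcrg-C1 is chromosome 13, 19214103 to 19214432, on GRCm38 in GENCODE M21. They run 5′ to 3′ over 90 bases, and capitals mark bases that differ from Tcrg-C1.
Tcrg-C1: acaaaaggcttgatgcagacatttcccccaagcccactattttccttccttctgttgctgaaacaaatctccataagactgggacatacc
Tcrg-C2: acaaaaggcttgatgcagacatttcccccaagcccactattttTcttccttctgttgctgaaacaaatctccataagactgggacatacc
Tcrg-C3: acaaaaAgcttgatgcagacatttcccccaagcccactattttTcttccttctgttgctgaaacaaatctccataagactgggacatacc
Tcrg-C4: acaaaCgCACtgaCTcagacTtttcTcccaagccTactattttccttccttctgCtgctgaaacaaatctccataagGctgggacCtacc
Tcrg-C2 differs from Tcrg-C1 at 1 base here, Tcrg-C3 at 2 and Tcrg-C4 at 12. Over the whole transcript, 51.0% of the 31-base words of Tcrg-C1 also occur in another gene, most often Tcrg-C2. The same share is 1.17% for Trdc, 0.0494% for Cd3e and 0.0304% for Cd3g. Il2rb, Icos and Zap70 share no such word with another gene. The delta count therefore rests on sequence that is nearly its own, and the split of the gamma count among constant genes is uncertain.

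Trdc encodes the constant region of the delta chain (chromosome 14, 54142851 to 54148868). Its counts were 18 for wildtype, 106 for Sp6 cKO, 35 for Sp8 cKO and 115 for Sp6+Sp8 cKO, or 0.828, 8.22, 2.78 and 7.47 CPM in the same order. Sp6 cKO and Sp6+Sp8 cKO were high, Sp8 cKO lay between them and wildtype, and wildtype was lowest. In bulk tissue, fewer cells of a type and less RNA per cell cannot be told apart. Trdc was 9.93-fold higher in Sp6 cKO than in wildtype (95% interval 5.99 to 17.4). It was 3.36-fold higher in Sp8 cKO (1.85 to 6.30) and 9.03-fold higher in Sp6+Sp8 cKO (5.47 to 15.8). Within batch 1, Trdc was 2.96-fold higher in Sp6 cKO than in Sp8 cKO (2.00 to 4.47) and 2.69-fold higher in Sp6+Sp8 cKO than in Sp8 cKO (1.83 to 4.05). Sp6+Sp8 cKO and Sp6 cKO differed by a ratio of 0.909, with an interval of 0.692 to 1.20 that includes 1.

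Tcrg-C1 encodes the constant region of a gamma chain (chromosome 13, 19214103 to 19217024). Its counts were 7, 47, 17 and 58, or 0.322, 3.64, 1.35 and 3.77 CPM. The order of the libraries was the one seen for Trdc, except that the top pair changed places within their counting error. Tcrg-C1 was 11.3-fold higher in Sp6 cKO than in wildtype (5.08 to 29.7), 4.19-fold higher in Sp8 cKO (1.65 to 12.0) and 11.7-fold higher in Sp6+Sp8 cKO (5.34 to 30.4). These folds start from 7 counts in wildtype. Per kilobase of exon, Tcrg-C1 stood at 0.348, 3.94, 1.46 and 4.08 CPM and Trdc at 0.214, 2.13, 0.719 and 1.93 CPM in the same order. The number of Tcrg-C1 counts per Trdc count was 0.389, 0.443, 0.486 and 0.504, and the 4 exact intervals overlapped.

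Among 17 other gamma and delta receptor genes found in the table, 2 reached a CPM of 1 in any library. Trdv4, a delta variable segment, had 0, 21, 7 and 26 counts, with none in wildtype. Against the floor of 3 counts in wildtype it was at least 11.8-fold higher in Sp6 cKO and at least 12.2-fold higher in Sp6+Sp8 cKO, and both passed the rule. In Sp8 cKO its level of 0.556 CPM was under the minimum for a comparison with wildtype. Within batch 1 it was 2.93-fold higher in Sp6 cKO than in Sp8 cKO (1.20 to 8.16) and 3.04-fold higher in Sp6+Sp8 cKO than in Sp8 cKO (1.29 to 8.30). No 31-base word of Trdv4 occurs in another gene. A stretch of its coding exon, chr14:54075217-54075306 on the plus strand of GRCm38, is shown because it is the delta variable sequence with the most counts here; it is in lower case throughout, since no base in it is singled out.
Trdv4: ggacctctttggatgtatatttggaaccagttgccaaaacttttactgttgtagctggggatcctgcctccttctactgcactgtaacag
Tcrg-C2, the near copy of Tcrg-C1, had 2, 13, 11 and 17 counts in the 4 libraries and was higher than wildtype in Sp6 cKO and Sp6+Sp8 cKO. Its fold in Sp6 cKO was 11.0, from 2 counts in wildtype, and 12.0 in Sp6+Sp8 cKO with a counting interval of 2.85 to 107. Tcrg-C4 had 8, 4, 1 and 6 counts and Tcrg-C3 none. The gamma variable segments Tcrg-V5 and Tcrg-V6, known from skin gamma-delta T cells, had 0, 1, 0 and 0 counts and 1, 2, 2 and 7 counts. At this depth the variable segments do not show which gamma chains were in use.

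Alpha-beta receptor genes did not follow the same order. Trbc2, a beta constant gene and in every library the receptor constant gene with the highest level per kilobase of exon among those named here, had 119, 68, 59 and 96 counts, or 5.47, 5.27, 4.68 and 6.24 CPM. Trac, the alpha constant gene, had 7, 6, 13 and 8 counts. It was higher than wildtype by size in Sp8 cKO alone, by 3.20-fold (1.19 to 9.49). Trac, Trbc1 and Trbc2 together had 133, 81, 75 and 109 counts. Their ratio to wildtype was 1.03 in Sp6 cKO (0.769 to 1.36), 0.973 in Sp8 cKO (0.723 to 1.30) and 1.16 in Sp6+Sp8 cKO (0.891 to 1.503). Cd4, the coreceptor of helper T cells, had 62, 35, 28 and 46 counts, while Cd8a had at most 6 counts and Cd8b1 at most 2 in any library. Of the 8 alpha-beta constant and coreceptor genes, 0 of 3 compared were higher in Sp6 cKO, 1 of 4 in Sp8 cKO and 0 of 3 in Sp6+Sp8 cKO, with medians over all 8 of 0.17, -0.13 and 0.13 on the log2 scale. As 48.5% of the 31-base words of Trbc2 occur in another gene, most often Trbc1, the split between those genes is uncertain.

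A ratio of gamma-delta to alpha-beta constant counts needs no scaling between libraries. Trdc and Tcrg-C1 together had 0.188 counts per alpha-beta constant count in wildtype (exact interval 0.117 to 0.290). The ratio was 1.89 in Sp6 cKO (1.43 to 2.50), 0.693 in Sp8 cKO (0.477 to 1.00) and 1.59 in Sp6+Sp8 cKO (1.24 to 2.04). The interval of wildtype overlapped none of the others, and that of Sp8 cKO overlapped neither Sp6 cKO nor Sp6+Sp8 cKO. Most alpha-beta counts were from Trbc2, with 119 of 133, 68 of 81, 59 of 75 and 96 of 109 in the 4 libraries. The ratio therefore rests mainly on that beta gene. Trac had 7, 6, 13 and 8 counts, too few to set the gamma-delta counts against the alpha gene alone. Gene lengths and the RNA made per cell differ, so this is a ratio of counts and not of cells.

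**Figure D1:**
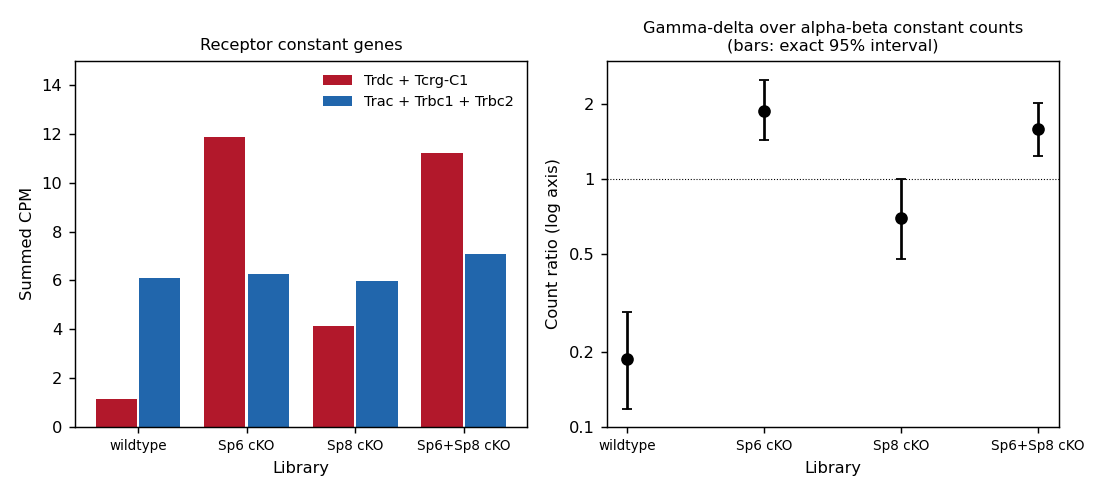
Left, bars give the summed CPM of gamma-delta constant genes (red) and alpha-beta constant genes (blue) in each of the 4 libraries; right, points give the ratio of gamma-delta to alpha-beta constant counts on a log axis, with exact 95% intervals for counting error. The blue bars, mostly Trbc2, stay between 5.95 and 7.08 CPM while the red bars run from 1.15 CPM in wildtype to 11.9 CPM in Sp6 cKO.

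The CD3 epsilon and gamma genes showed the same order of libraries as the receptor constants at the low end, and CD3 delta could not be read. Cd3e, whose chain pairs with either CD3 gamma or CD3 delta (chromosome 9, 44998740 to 45009627), had 24, 96, 27 and 89 counts, or 1.10, 7.44, 2.14 and 5.78 CPM. It was 6.74-fold higher in Sp6 cKO than in wildtype (4.28 to 11.0) and 5.24-fold higher in Sp6+Sp8 cKO (3.31 to 8.60). In Sp8 cKO its log2 ratio of 0.88 fell just short of the rule. Cd3g (chromosome 9, 44969572 to 44980431) had 10, 36, 13 and 57 counts, or 0.460, 2.79, 1.03 and 3.71 CPM. Cd3g was 6.07-fold higher in Sp6 cKO (2.95 to 13.7) and 8.06-fold higher in Sp6+Sp8 cKO (4.08 to 17.7). Its log2 ratio of 0.98 in Sp8 cKO also fell just short, with a fold interval of 0.909 to 5.72 that includes 1. Both genes were high in Sp6 cKO and Sp6+Sp8 cKO, with Sp8 cKO nearer to wildtype.

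Within batch 1, Cd3e was 3.47-fold higher in Sp6 cKO than in Sp8 cKO (2.25 to 5.54) and Cd3g was 2.71-fold higher (1.40 to 5.56). In Sp6+Sp8 cKO against Sp8 cKO the folds were 2.70 for Cd3e (1.74 to 4.32) and 3.59 for Cd3g (1.94 to 7.15). Cd3d (chromosome 9, 44981786 to 44987339) had 4, 7, 2 and 4 counts and reached a CPM of 1 in no library, so it entered no comparison. In Sp8 cKO it was under the floor of 3 counts. Its fold in Sp6 cKO against wildtype had an interval of 0.750 to 13.7, so a difference of the size seen for Cd3e was neither shown nor excluded at this depth. Counts of Cd3d per Cd3e count were between 0.0449 and 0.167.

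Cd247 encodes the zeta chain, the CD3 subunit with the most signalling motifs (chromosome 1, 165788681 to 165877277), and it did not follow the other chains. Its counts were 157, 119, 95 and 120, or 7.22, 9.23, 7.54 and 7.80 CPM. All 4 libraries lay close together. Its ratio to wildtype was 1.28 in Sp6 cKO (0.998 to 1.63), 1.04 in Sp8 cKO (0.801 to 1.36) and 1.08 in Sp6+Sp8 cKO (0.844 to 1.38). These intervals exclude the folds seen for Cd3e in Sp6 cKO and Sp6+Sp8 cKO. Per pan-leukocyte count the Cd247 log2 ratios turned negative, at -0.21, -0.34 and -0.26. There were 6.54 Cd247 counts per Cd3e count in wildtype (4.24 to 10.5) and 3.52 in Sp8 cKO (2.27 to 5.61). The ratio was 1.24 in Sp6 cKO (0.939 to 1.64) and 1.35 in Sp6+Sp8 cKO (1.02 to 1.79). Per kilobase of exon, Cd247 exceeded Cd3e 5.01-fold in wildtype and 0.949-fold in Sp6 cKO.

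Part of the Cd247 count is uncertain. The gene overlaps Pou2f1, a broadly expressed transcription factor gene on the opposite strand, which stood at 86.0, 85.7, 75.6 and 92.2 CPM in the 4 libraries. Per the labels' protocols the libraries keep strand, but no source used here says whether the counting used it. It also shares sequence with Gm16565 on the same strand, which had 6, 8, 5 and 11 counts. Cd247 is also expressed by natural killer cells, whose genes are given further on. The part of either in the flat Cd247 level was not tested.

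**Figure D2:**
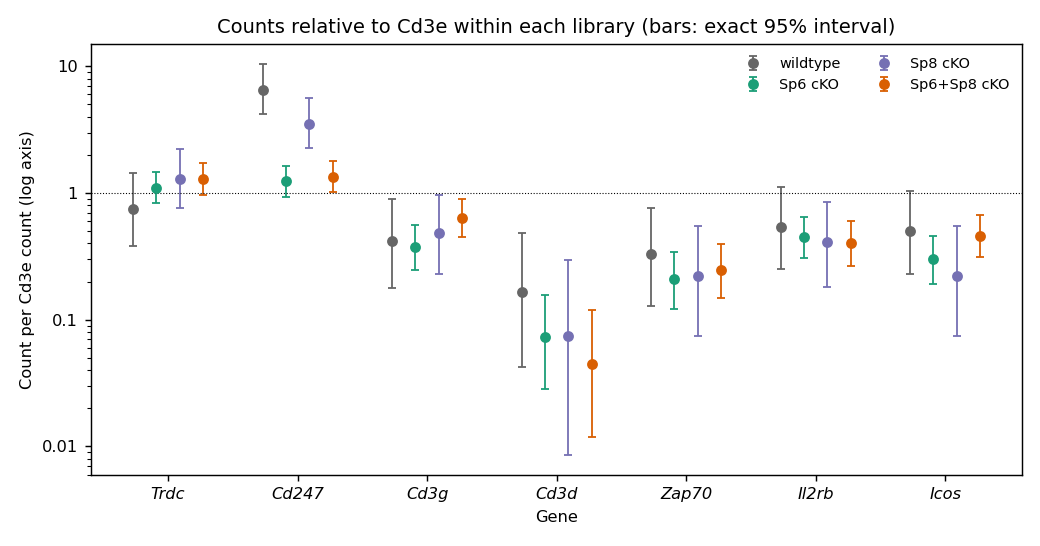
Points give the counts of 7 genes per Cd3e count within each library on a log axis, with exact 95% intervals for counting error, coloured by library. Cd247 runs from 6.54 in wildtype to 1.24 in Sp6 cKO. Its wildtype interval overlaps that of Sp8 cKO but not those of Sp6 cKO and Sp6+Sp8 cKO. For each of the other 6 genes the intervals of wildtype and of every cKO library overlap.

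The CD3 genes other than Cd247 lie side by side. Cd3g and Cd3d start 1355 bp apart on opposite strands, and Cd3g, Cd3d and Cd3e span 40056 bp of chromosome 9. Their upstream windows are shown beside that of Cd247 because these genes sit in 1 cluster and Cd247 on another chromosome. The RefSeq promoter table for GRCm38.p6 held 5 of the 9 genes; Trdc, Tcrg-C1, Il2rb and Icos were not matched. Windows run 5′ to 3′ on the gene's strand, from 250 to 31 bases before the RefSeq start. For Cd3e that start is not the GENCODE M21 start of the gene position given above. Capitals mark matches, on either strand, to motifs of factor families known from T cells. The ETS motif is GGAAG, the GATA motif is AGATAA, the RUNX motif is TGTGGT and the E-box motif is CAGGTG, and a match on the other strand reads as the reverse complement. No match overlaps another.
Cd3g, chr9:44980462-44980681, minus strand: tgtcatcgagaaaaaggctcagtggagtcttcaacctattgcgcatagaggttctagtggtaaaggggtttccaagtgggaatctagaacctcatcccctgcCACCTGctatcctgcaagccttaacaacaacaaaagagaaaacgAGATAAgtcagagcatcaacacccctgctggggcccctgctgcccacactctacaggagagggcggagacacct
Cd3d, chr9:44981536-44981755, plus strand: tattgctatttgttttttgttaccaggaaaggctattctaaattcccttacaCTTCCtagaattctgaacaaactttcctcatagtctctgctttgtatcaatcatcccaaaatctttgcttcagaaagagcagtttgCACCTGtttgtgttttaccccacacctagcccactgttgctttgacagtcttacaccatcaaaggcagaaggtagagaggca
Cd3e, chr9:45009642-45009861, minus strand: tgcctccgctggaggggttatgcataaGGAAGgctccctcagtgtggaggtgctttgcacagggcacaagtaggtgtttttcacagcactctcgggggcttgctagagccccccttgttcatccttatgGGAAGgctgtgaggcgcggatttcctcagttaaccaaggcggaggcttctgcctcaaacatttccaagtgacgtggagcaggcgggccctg
Cd247, chr1:165788431-165788650, plus strand: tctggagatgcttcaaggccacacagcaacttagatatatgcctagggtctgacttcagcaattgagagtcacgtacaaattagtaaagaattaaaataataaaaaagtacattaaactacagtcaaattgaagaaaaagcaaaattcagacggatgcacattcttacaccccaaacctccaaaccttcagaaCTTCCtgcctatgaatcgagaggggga
The Cd3g window held 1 GATA and 1 E-box match, that of Cd3d 1 ETS and 1 E-box match, that of Cd3e 2 ETS matches and that of Cd247 1 ETS match. Of 32851 windows of the same length in the table, 58.6% held the ETS motif, 9.04% the GATA motif, 12.7% the RUNX motif and 15.5% the E-box motif. A match is a run of letters and not a shown binding site, and no motif was found in all 4 windows.

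Zap70 encodes the kinase that binds the phosphorylated CD3 tails (chromosome 1, 36761798 to 36782818). Its counts were 8, 20, 6 and 22, or 0.368, 1.55, 0.476 and 1.43 CPM. It was 4.22-fold higher in Sp6 cKO than in wildtype (1.78 to 11.1) and 3.89-fold higher in Sp6+Sp8 cKO (1.67 to 10.1). In Sp8 cKO it was under the CPM minimum, with a ratio of 1.30 to wildtype (0.370 to 4.25). Within batch 1 it was 3.26-fold higher in Sp6 cKO than in Sp8 cKO (1.26 to 9.91). Sp6 cKO and Sp6+Sp8 cKO were thus high for Zap70, and Sp8 cKO and wildtype were low.

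Il2rb encodes the beta chain shared by the receptors for interleukin 2 and interleukin 15 (chromosome 15, 78479256 to 78495271). It had 13, 43, 11 and 36 counts, or 0.598, 3.33, 0.873 and 2.34 CPM. It was 5.58-fold higher in Sp6 cKO than in wildtype (2.94 to 11.3) and 3.91-fold higher in Sp6+Sp8 cKO (2.03 to 8.04). Interleukin 15 signals through this chain to maintain gamma-delta T cells of the skin. In Sp8 cKO the ratio to wildtype was 1.46 (0.592 to 3.53), under the CPM minimum. Sp6 cKO exceeded Sp8 cKO 3.82-fold (1.94 to 8.21).

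Icos encodes an inducible costimulatory receptor of activated T cells (chromosome 1, 60977927 to 61000320). Its counts were 12, 29, 6 and 41, or 0.552, 2.25, 0.476 and 2.67 CPM. Sp8 cKO and wildtype were low, and the other libraries were high. It was 4.07-fold higher in Sp6 cKO than in wildtype (2.02 to 8.77) and 4.83-fold higher in Sp6+Sp8 cKO (2.49 to 10.1). Sp6+Sp8 cKO exceeded Sp8 cKO 5.59-fold (2.36 to 16.1) and Sp6 cKO exceeded it 4.72-fold (1.93 to 13.9). A gene model on the same strand within Icos, Gm37039, had 0, 12, 1 and 4 counts. In GENCODE M21 no 31-base word of Icos occurs in another gene, Gm37039 included. How reads of this region were divided in the counting was not tested.

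**Figure D3:**
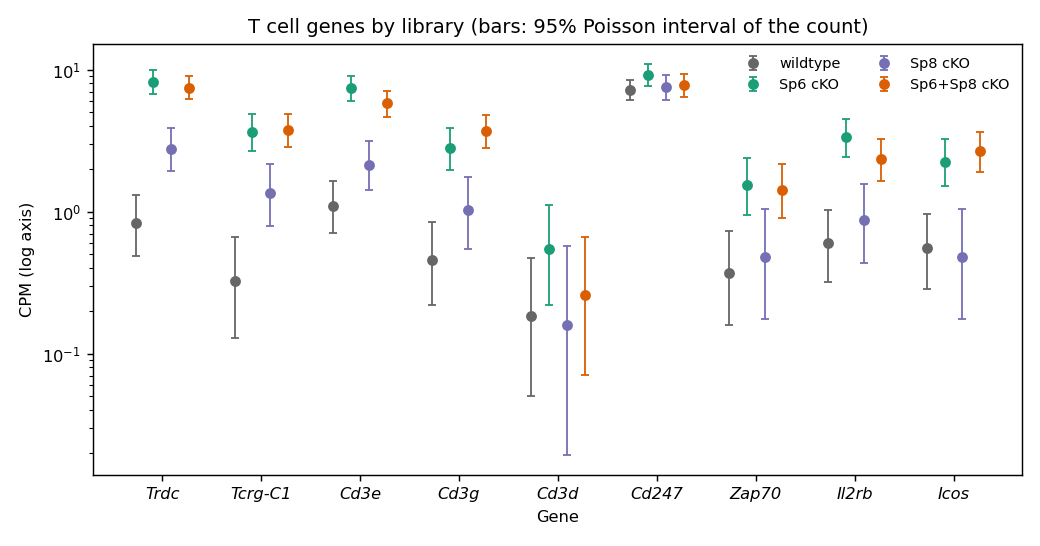
Points give the CPM of the 9 genes in each library on a log axis, with 95% Poisson intervals of the count, coloured by library. For Trdc, Tcrg-C1, Cd3e, Cd3g, Il2rb, Icos and Zap70 the Sp6 cKO and Sp6+Sp8 cKO points stand above wildtype and Sp8 cKO, while Cd247 stays between 7.22 and 9.23 CPM and Cd3d never reaches 1 CPM.

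Counted over the list against wildtype, Sp6 cKO had 7 of 9 genes higher and 0 lower, where 2.24% of the 16884 genes compared were higher and 2.16% lower. In Sp8 cKO 2 of 9 were higher, Trdc and Tcrg-C1, and 0 were lower, where 2.27% of all genes compared were higher and 1.55% lower. In Sp6+Sp8 cKO 7 of 9 were higher and 0 lower, against 2.84% and 2.95% of all genes compared. Since these contrasts were known when the genes were chosen, nothing is read from the counts against those shares. The number that could be compared was 8, 5 and 8. A gene that entered through the library where it was high had to differ, so the medians are given over all 9 genes. They were 2.25, 0.46 and 2.04 on the log2 scale, beside -0.008, -0.008 and -0.015 over all genes compared.

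Within batch 1, Sp6 cKO had 7 of 9 genes higher than Sp8 cKO and 0 lower, where 1.35% of all genes compared were higher and 1.75% lower. The same was true of 7 and 0 in Sp6+Sp8 cKO against Sp8 cKO, where 1.88% were higher and 2.80% lower. Between Sp6+Sp8 cKO and Sp6 cKO 0 of 9 genes were called in either direction, where 1.89% of all genes compared were higher and 2.08% lower. Every interval of that last comparison includes 1, the widest of the compared genes being that of Zap70, 0.480 to 1.78. Medians over the 9 genes were 1.47, 1.38 and -0.14 for these comparisons.

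**Figure D4:**
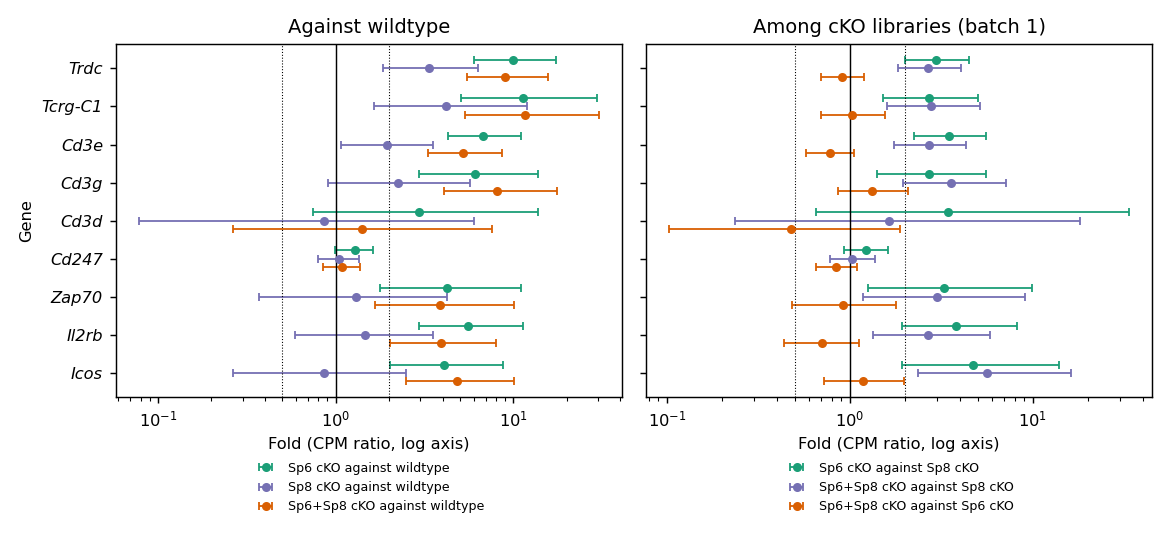
Points give each gene's fold (CPM ratio, log axis) with exact 95% intervals for counting error, against wildtype on the left and among the cKO libraries of batch 1 on the right; the solid line marks no difference and dotted lines 2-fold. In the comparison of Sp6+Sp8 cKO with Sp6 cKO every interval crosses the solid line, and for Cd247 every interval does so in all 6 comparisons.

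Against wildtype, the pan-leukocyte sum moved less than the sum of the 9 genes. As those genes were chosen with their levels known, nothing is read from this about T cell genes in general. The 12 pan-leukocyte genes, among them Ptprc (CD45), summed to 220.3, 326.4, 292.2 and 285.7 CPM, with 0 of 12 past the rule against wildtype in each. Counts of the 9 genes summed to 253, 503, 212 and 542, or 11.6, 39.0, 16.8 and 35.2 CPM. The sum was 3.35-fold higher in Sp6 cKO than in wildtype (2.88 to 3.91), 1.45-fold in Sp8 cKO (1.20 to 1.74) and 3.03-fold in Sp6+Sp8 cKO (2.60 to 3.53). Per 1000 pan-leukocyte counts the sum was 52.8, 120, 57.6 and 123. On that scale the fold was 2.26 in Sp6 cKO, 1.09 in Sp8 cKO (0.904 to 1.31) and 2.33 in Sp6+Sp8 cKO. Cd247 gave 157 of the 253 wildtype counts, and without it the CPM folds of the sum were 6.74, 2.10 and 6.21. For Trdc and Tcrg-C1 alone, the folds per pan-leukocyte count were 6.96 (4.54 to 11.1), 2.71 (1.65 to 4.55) and 7.54 (4.94 to 12.0). For Trac, Trbc1 and Trbc2, outside the list, they were 0.693 (0.519 to 0.920), 0.734 (0.545 to 0.981) and 0.893 (0.687 to 1.16).

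Genes of other cell types were read beside these. The natural killer cell genes Ncr1, Klrb1c and Eomes had at most 1, 6 and 2 counts in any library, Gzma had none, and 1 of 10 genes of that list, Cd244, reached a CPM of 1. The list summed to 4.65, 5.74, 5.40 and 3.97 CPM, with 0 of 1 compared past the rule in any cKO library. Zap70, Il2rb and Cd247 are also expressed by natural killer cells. Over the 4 libraries Ncr1 had 1, 0, 0 and 0 counts, Klrb1c 6, 1, 2 and 2, and Eomes 1, 0, 2 and 0. The part of natural killer cells in the levels of Zap70, Il2rb and Cd247 was not tested. B cell genes summed to 19.8, 22.8, 29.5 and 13.8 CPM, with 0 of 3, 1 of 5 and 0 of 3 compared higher than in wildtype and 0 lower. Macrophage and monocyte genes summed to 487.5, 603.6, 610.2 and 517.5 CPM, with 0 of 10 past the rule in each.

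Mast cell genes summed to 82.1, 134, 151 and 107 CPM, with 2, 5 and 1 of 8 higher. Erythroid genes summed to 262, 336, 687 and 349 CPM, with 1, 4 and 1 of 5 higher. Both were highest in Sp8 cKO, the cKO library with the fewest T cell counts. Langerhans and dendritic cell genes had 0 of 8 past the rule in each cKO library, and neutrophil genes had 1, 0 and 1 of 8 higher and 0, 1 and 2 lower. The part of these cell types in the T cell results was not tested. Among genes of group 2 innate lymphoid and regulatory T cells, 1, 0 and 0 of 5 compared were higher and 0 lower. Areg, an epidermal growth factor receptor ligand made by several cell types, was the 1 gene higher in Sp6 cKO. Foxp3, the regulatory T cell factor, had 24, 23, 16 and 22 counts.

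Signalling genes downstream of the receptor moved in part. Of the genes for proximal receptor signalling, 4 of 14 compared were higher in Sp6 cKO, 3 of 15 in Sp8 cKO and 2 of 14 in Sp6+Sp8 cKO, and 0 were lower, with log2 medians over all 21 found of 0.63, 0.51 and 0.57. Lck, the kinase that phosphorylates the CD3 tails, had 11, 23, 18 and 27 counts. It was 3.53-fold higher in Sp6 cKO than in wildtype (1.65 to 8.01), 2.82-fold higher in Sp8 cKO (1.26 to 6.62) and 3.47-fold higher in Sp6+Sp8 cKO (1.67 to 7.75). Sh2d2a, a T cell adaptor that binds Lck, had 7, 26, 14 and 26 counts and was also higher in all 3. The adaptor genes Lat and Lcp2 passed the rule in Sp6 cKO alone, at 2.19-fold (1.18 to 4.14) and 2.25-fold (1.81 to 2.80). Fyn, a kinase of many tissues, stood at 29.9, 29.2, 30.6 and 25.5 CPM. Among the cKO libraries no gene of this list passed the rule.

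In the cytokine axis that Il2rb belongs to, 1 of 12, 1 of 11 and 1 of 11 compared were higher than in wildtype and 0 lower, with log2 medians over all 13 found of 0.16, 0.17 and 0.04. That gene was Il2ra, the alpha chain of the interleukin 2 receptor, with 26, 51, 35 and 48 counts. It was 3.31-fold higher in Sp6 cKO (2.02 to 5.53), 2.32-fold in Sp8 cKO (1.36 to 4.02) and 2.61-fold in Sp6+Sp8 cKO (1.59 to 4.38). Jak1, a kinase used by most cells, stood between 124.7 and 133.9 CPM. Of the costimulation and checkpoint genes, 2 of 8, 1 of 6 and 1 of 8 were higher and 0 lower, with log2 medians over all 13 found of 0.47, 0.25 and 0.41. Tnfrsf9, also called 4-1BB, had 9, 28, 11 and 23 counts and was 5.25-fold higher in Sp6 cKO (2.41 to 12.63) and 3.61-fold higher in Sp6+Sp8 cKO (1.61 to 8.87). Cd28, the constitutive costimulatory receptor, had 20, 28, 27 and 28 counts and passed the rule in Sp6 cKO and Sp8 cKO.

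Genes known from epidermal gamma-delta T cells were higher for 2, 2 and 4 of 10 compared and lower for 0, with log2 medians over all 17 found of 0.60, 0.40 and 0.59. Itgae, the integrin that binds epithelial cadherin, had 51, 73, 38 and 101 counts. It was 2.41-fold higher in Sp6 cKO (1.66 to 3.52) and also passed the rule in Sp6+Sp8 cKO, which exceeded Sp8 cKO 2.18-fold (1.48 to 3.25). Ccr4, a skin-homing chemokine receptor, had 25, 28, 45 and 56 counts and passed the rule in Sp8 cKO and Sp6+Sp8 cKO. The early activation marker Cd69 had 2, 3, 0 and 16 counts, and it was the gene of this list that separated Sp6+Sp8 cKO from Sp6 cKO, by 4.47-fold (1.28 to 23.9).

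Genes known from interleukin-17-type gamma-delta T cells were higher for 5 of 11, 5 of 9 and 5 of 9 compared and lower for 0, with log2 medians over all 14 found of 1.06, 0.17 and 1.24. Il17a had 0, 15, 0 and 13 counts, and the 0 counts in wildtype and Sp8 cKO allow up to 0.138 and 0.238 CPM. It was at least 8.43-fold higher in Sp6 cKO than in wildtype, and at 0.845 CPM in Sp6+Sp8 cKO it was under the minimum for a comparison. Blk, a kinase of B cells and of these T cells, had 14, 41, 18 and 38 counts and was 4.94-fold higher in Sp6 cKO (2.64 to 9.81), 2.22-fold in Sp8 cKO (1.04 to 4.82) and 3.84-fold in Sp6+Sp8 cKO (2.03 to 7.66). Cd163l1, also called Scart1, a scavenger receptor gene of gamma-delta T cells, had 11, 32, 26 and 56 counts and passed the rule in all 3. So did Il23r, a chain of the interleukin 23 receptor, with 18, 25, 23 and 30 counts. The ratio of Il23r between Sp6 cKO and Sp8 cKO was 1.06 (0.578 to 1.96).

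The genes with profiles most like that of Trdc were ranked by the root mean square difference of centred log2 CPM over the 4 libraries, a description over 4 points. Among the other 8 genes of the list the difference was 0.08 for Tcrg-C1, 0.30 for Cd3e, 0.31 for Cd3g, 0.48 for Il2rb, 0.58 for Zap70, 0.65 for Icos, 0.99 for Cd3d and 1.17 for Cd247. Among 14505 other protein-coding genes the nearest were S100a8 (0.31), Cxcl2 (0.31), Defb3 (0.31), St6galnac1 (0.34) and Gm2237 (0.34). S100a8 encodes a calprotectin subunit, Cxcl2 a neutrophil chemokine and Defb3 a beta-defensin. S100a8 stood at 8.83, 50.2, 30.6 and 69.2 CPM, and Cxcl2 had 6, 33, 20 and 46 counts. Both had Sp6+Sp8 cKO as the highest library and wildtype as the lowest. Defb3 had 0, 22, 3 and 15 counts, St6galnac1 0, 23, 3 and 17, and Gm2237 3, 22, 13 and 25. Their wildtype counts were at or under the floor of 3 counts, so their places in this ranking depend in part on the prior count of 2.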

How the data were processed

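RNA-seq gene counts of 4 mouse digit tip libraries were used, 1 per genotype. The authors deposited estimated counts, 1 value per gene, with no scaling for depth. Salmon, STAR, featureCounts, edgeR, deepTools and Trim Galore 0.6.4 appear without roles in the submitters' processing notes, as does build GRCm38. Which annotation release was used is not stated in those sources. Per the labels' protocols, poly-A libraries were made with dUTP strand marking and read as pairs of 150 bp. Such counts vary with the way reads common to similar genes were split. The table holds 1 further column that matches no listed sample, which was not used.

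Counts were rounded. CPM was scaled by TMM (edgeR 4.0.16, R 4.3.3), and log2 ratios used a prior count of 2. Folds are ratios of CPM with exact Clopper-Pearson 95% intervals conditional on the summed counts. Where a library had 0 counts, 3 counts took their place and the fold is a lower bound. The procedure was checked on simulated data. Gene positions and exon lengths came from GENCODE M21, which held 98.8% of the identifiers.

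The 9 genes and the 17 other lists were chosen with earlier results of these data known. Named were all 9 genes, Sp6 and Sp8, and the 5 genes most like Trdc. From the lists, genes past the size rule (at most 4 a list, by log2 ratio) and the 2 most abundant genes could be named. Not all of these were, and Plcg1, Rasgrp1, Thy1, Sema4d, Rora and Maf are among the abundant genes left out. The other genes named (Trbc1, Cd8a, Cd8b1, the other gamma and delta segments, Ncr1, Klrb1c, Eomes, Gzma, Foxp3, Xist, Kdm5d and genes that overlap one of the 9) were named as defining markers or for their place, and not for a difference. Lat and Il23r fell outside the rule and were chosen after their values were seen. Ptprc and Fyn were also named outside it. Alternatives were DESeq2 1.42.0 size factors, totals of each library with and without the 20 most abundant genes, pan-leukocyte scaling, CPM minimums, a 1.5-fold rule, other prior counts and subsets of the 9 genes.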

Additional observations from a re-analysis of the deposited data

How the results depend on the processing

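No gene called higher turned direction under any alternative run. DESeq2 size factors, library totals (also without the 20 most abundant genes) and prior counts of 0.5 and 5 changed no count of calls. In Sp8 cKO against wildtype, the number of the 9 genes called higher was 1 with a CPM minimum of 2, 3 with the 1.5-fold rule and 0 without Trdc and Tcrg-C1. With a CPM minimum of 2 it was 6 in place of 7 for Sp6 cKO and for Sp6+Sp8 cKO, both against wildtype and against Sp8 cKO. The log2 ratio of the summed counts against wildtype was, per pan-leukocyte count, 1.18 for Sp6 cKO, 0.13 for Sp8 cKO and 1.22 for Sp6+Sp8 cKO. Between Sp6+Sp8 cKO and Sp6 cKO its sign turned on that scale, from -0.15 to 0.045. So did the signs of uncalled ratios of Cd247 (the 3 against wildtype), of Zap70 in Sp8 cKO against wildtype (0.28 to -0.03), and of Trdc and Zap70 between Sp6+Sp8 cKO and Sp6 cKO (-0.14 to 0.05 and -0.11 to 0.07). Without Trdc and Tcrg-C1 it was 1.37 in Sp6 cKO and 1.19 in Sp6+Sp8 cKO against wildtype. Without Cd247, an alternative chosen after seeing the data, it was 2.75, 1.07 and 2.63 against wildtype, 1.68 for Sp6 cKO against Sp8 cKO and 1.56 for Sp6+Sp8 cKO against Sp8 cKO. These subsets hold fewer genes by construction. No replicate could be left out, and no paired analysis was possible because each group has 1 library. Depth limits Cd3d, Zap70 and the variable segments, which had 26 counts or fewer in each library.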
